A study of Mus musculus with 18 samples.

Results

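The 31 genes described here encode transcription regulators whose RNA gave a higher array signal in mouse embryonic fibroblasts (MEFs) than in pluripotent cells. They were taken by a rule on names from the authors' list of 471 probe sets that were lower in pluripotent cells than in MEFs, keeping each probe set whose gene symbol began with one of 41 prefixes of transcription factor families (Hox, Prrx, Runx, Nfi, Zfp and others). This gave 47 of the 45037 probe sets on the array, with 18 of the 41 prefixes represented. Of the genes, 28 encode DNA-binding factors and 3 encode cofactors that act through other factors (Runx1t1, Zfpm2 and Lmo4). Every probe set on the authors' list had a MEF mean at least 10-fold above every one of the other 15 arrays. The fall from MEFs to pluripotent cells was therefore built into the choice and is given as a description, with no test. By the deposited values 485 probe sets met this limit, more than the 471 listed, so the limit alone does not define the list.

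The study asked whether EpCAM, an epithelial cell adhesion molecule, and its soluble extracellular domain EpEX could replace most of the usual reprogramming factors. Gene expression was measured on 18 Affymetrix mouse expression arrays, 1 per sample: 3 of MEFs, 3 of mouse embryonic stem cells (mESCs) and 4 each of 3 kinds of induced pluripotent stem cells (iPSCs). OE + EpEX iPSCs came from MEFs given Oct4 and EpCAM genes plus EpEX protein, KE + EpEX iPSCs from MEFs given Klf4 and EpCAM genes plus EpEX, and OSKM iPSCs from MEFs given Oct4, Sox2, Klf4 and c-Myc. The genes were carried on PiggyBac plasmids and switched on by doxycycline at 1.5 µg/mL for 21 days. For all 5 groups, mESCs included, the labels gave the same strain entry: a (rtTA*M2) Jae/J insertion at Rosa26 on B6.Cg, which supplies the doxycycline-controlled activator, with the B6.129S4-POU5f1tm2Jae/J allele, an Oct4 locus driving GFP. MEFs were isolated from E13.5 embryos. Each iPSC or mESC array was 1 clone. The MEF samples were labelled as biological replicates, while the series design spoke of a single primary MEF culture, so p-values and SDs measure only the spread between these samples. iPSC cultures were plated on feeder cells, which are fibroblasts. For immunostaining, the paper describes feeder MEFs under ESCs as well as under iPSCs. In bulk samples of such cultures fewer fibroblasts and less RNA per cell cannot be told apart.

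The deposited values were log2 values centred on each probe set's median over the 18 arrays, so a value of 0 is that median and a level cannot be compared between probe sets. Values of the 15 pluripotent arrays lay around 0 for the members, with a range of up to 3.55 between arrays of 1 probe set. Array medians over all probe sets ran from -0.03 to 0.07. MEF sample 1 stood apart from the other MEF samples, and KE + EpEX clone 1 and OE + EpEX clone 4 stood highest among pluripotent arrays for many members, as described below. Among the marker genes of a list of cell types, symbols were deposited only for probe sets of the authors' lists of lower and higher probe sets: 14 of 23 fibroblast markers were in the lower list, 12 of 14 pluripotency markers were in the higher list, and of muscle, cartilage, endothelial, macrophage and neural crest markers only Pecam1 was named, in the higher list.

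Fibroblasts hold their identity through transcription factors that read their origin in the mesenchyme: Hox and Prrx homeodomain factors mark position along the body and limbs, Runx, Ebf, Mef2 and Gli family factors direct bone, fat, muscle and Hedgehog-controlled programmes, and AP-1, Egr and Nr4a factors answer growth signals within minutes. Reprogramming to pluripotency is known to silence such somatic regulators while the Oct4, Sox2 and Nanog network is established.

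The promoters of 4 members are printed because these genes carry the main patterns. Prrx1 differed most between MEFs and pluripotent cells, and Hoxd13 and Nr4a2 differed most between MEF samples, in opposite directions. At probe set 1416301_a_at, though not at its other probe sets, Ebf1 was called different between mESCs and all 3 iPSC groups. Each window holds the 250 bases before the RefSeq start site in GRCm38.p6, read 5′ to 3′ on the gene's strand, with the dinucleotide CG (the letters C and G in that order, the substrate of DNA methylation) in capitals. They lie at chr1:163313651-163313900 (minus strand) for Prrx1, chr2:74667975-74668224 (plus strand) for Hoxd13, chr2:57124004-57124253 (minus strand) for Nr4a2 and chr11:44617850-44618099 (plus strand) for the first of 2 listed Ebf1 starts.
Prrx1: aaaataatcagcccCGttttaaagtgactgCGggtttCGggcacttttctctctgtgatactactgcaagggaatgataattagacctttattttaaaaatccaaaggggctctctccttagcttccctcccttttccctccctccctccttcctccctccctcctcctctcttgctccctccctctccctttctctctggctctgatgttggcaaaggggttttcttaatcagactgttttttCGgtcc
Hoxd13: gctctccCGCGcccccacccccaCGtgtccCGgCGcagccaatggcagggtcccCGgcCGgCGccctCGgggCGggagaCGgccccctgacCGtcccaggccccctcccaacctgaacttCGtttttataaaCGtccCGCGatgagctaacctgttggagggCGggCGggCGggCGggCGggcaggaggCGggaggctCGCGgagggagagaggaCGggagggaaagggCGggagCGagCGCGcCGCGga
Nr4a2: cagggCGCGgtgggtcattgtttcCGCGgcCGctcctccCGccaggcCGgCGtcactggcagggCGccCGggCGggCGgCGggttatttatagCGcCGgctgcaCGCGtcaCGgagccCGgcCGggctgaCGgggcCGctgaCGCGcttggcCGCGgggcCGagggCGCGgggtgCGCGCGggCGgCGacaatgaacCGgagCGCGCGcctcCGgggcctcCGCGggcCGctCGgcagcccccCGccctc
Ebf1: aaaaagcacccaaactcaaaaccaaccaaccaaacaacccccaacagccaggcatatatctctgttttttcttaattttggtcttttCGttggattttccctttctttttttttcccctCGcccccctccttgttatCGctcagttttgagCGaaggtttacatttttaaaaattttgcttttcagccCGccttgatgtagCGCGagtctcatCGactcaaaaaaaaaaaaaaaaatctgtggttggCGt

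The window of Prrx1 held 4 CG, that of Ebf1 9, that of Hoxd13 31 and that of Nr4a2 44. Among all 32851 RefSeq windows of this length the median was 6. Windows with at least as many CG made up 62.2% of all for Prrx1, 40.3% for Ebf1, 5.19% for Hoxd13 and 0.539% for Nr4a2. Windows were found for 19 of the 31 genes and their counts ran from 0 to 44. Members therefore had both CG-poor and CG-rich promoters, and methylation was not measured on these arrays.

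Over the 47 probe sets, the MEF mean exceeded the mean of the 15 pluripotent arrays by a median of 4.84 on the log2 scale, or 28.7-fold. The smallest difference was 3.60 (12.1-fold, Mef2c) and the largest 6.59 (96.5-fold, Prrx1). In 46 of 47 probe sets the lowest MEF array lay above all 15 others, with Hoxd13 as the exception. After quantile normalization, which forces arrays whose values had SDs from 0.19 to 1.39 onto 1 distribution, the median difference was 1.62. The map of values by array shows the 3 MEF columns standing apart from 15 nearly flat ones.

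**Figure D1:**
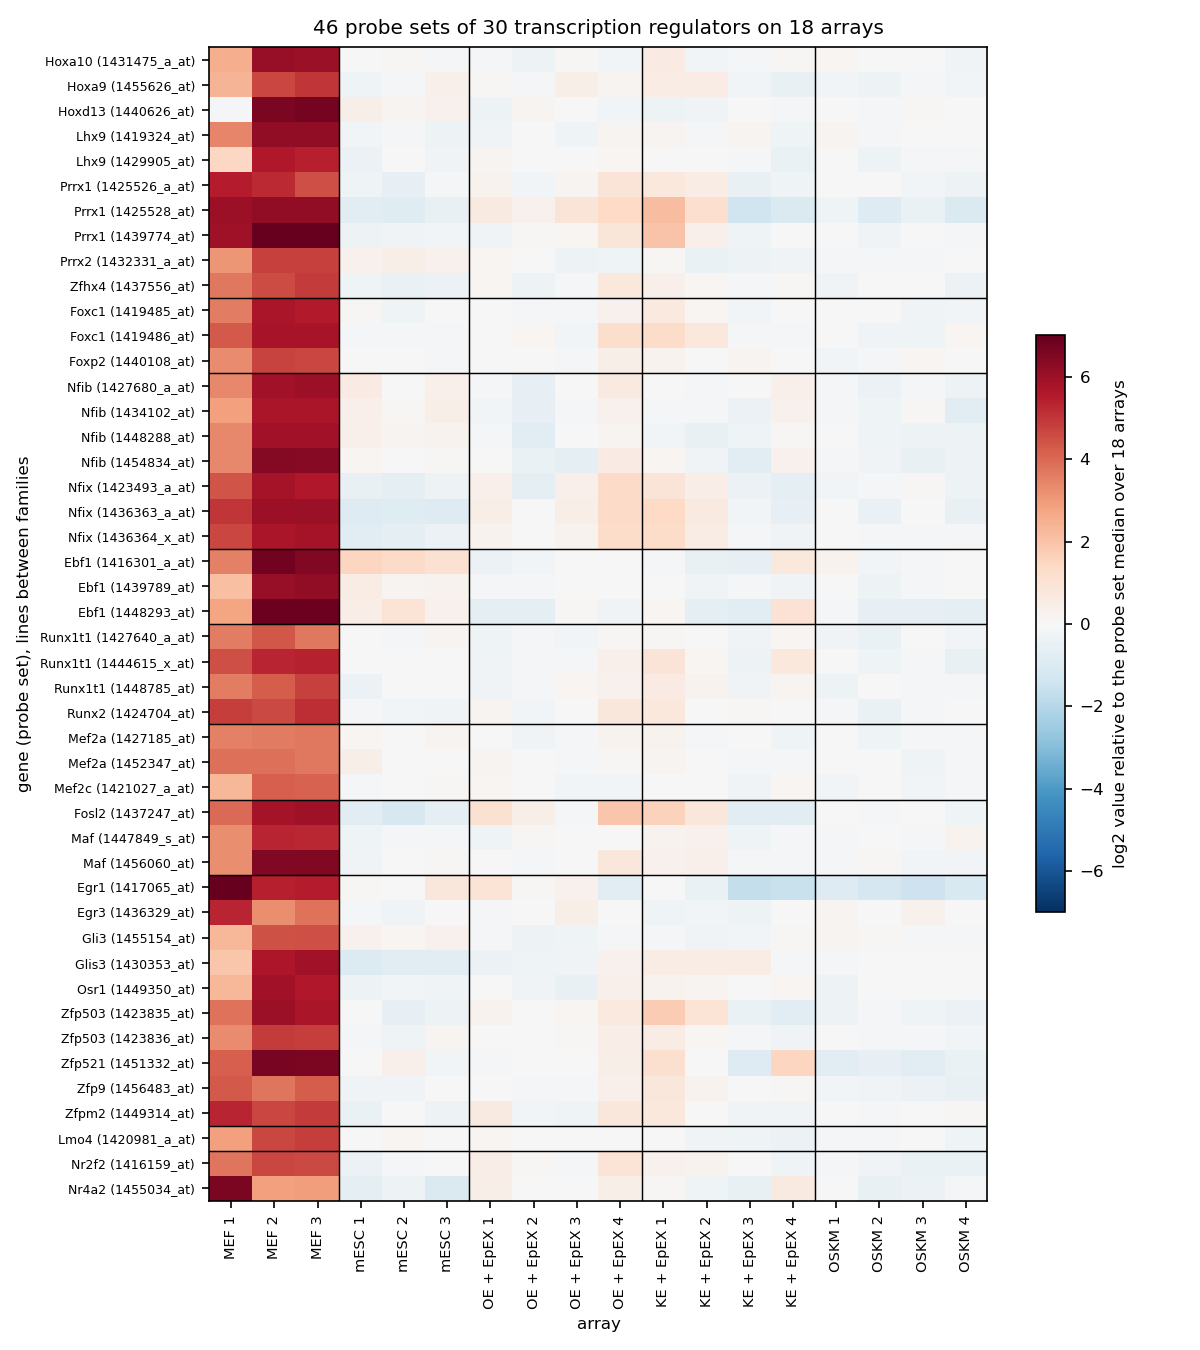
Log2 values (centred on each probe set's median over 18 arrays, colour scale) of 46 probe sets (rows, grouped by factor family) on 18 arrays (columns). MEF values are high in all rows except Hoxd13 in MEF sample 1, and the paler rows of that column show its lower values for many members.

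Homeodomain factors were the largest family by genes besides the zinc fingers, with 7 genes and 10 probe sets and MEF differences from 4.03 to 6.59. Prrx1, needed for limb bud and craniofacial mesenchyme, led the whole set through probe set 1439774_at, at 5.95, 7.1 and 7.06 in MEF samples 1 to 3. Its values in the pluripotent arrays were -0.34, -0.27 and -0.17 in the mESC arrays, -0.24, 0.06, 0.13 and 0.86 in OE + EpEX, 2.0, 0.35, -0.31 and 0.01 in KE + EpEX and -0.01, -0.27, -0.03 and -0.12 in OSKM iPSCs, in clone order. A further Prrx1 probe set, 1425528_at, measured 5.98, 6.21 and 6.22 in MEF samples 1 to 3 and -0.81, -0.86 and -0.49 in the mESC arrays, 0.65, 0.29, 0.92 and 1.38 in OE + EpEX, 2.17, 1.18, -1.38 and -1.03 in KE + EpEX and -0.29, -0.88, -0.45 and -1.0 in OSKM iPSCs, in clone order. It had the widest range of all members over the 15 arrays, 3.55. In the third, 1425526_a_at, MEF sample 1 was the highest, with 5.47, 5.2 and 4.52 in MEF samples 1 to 3, and the pluripotent arrays gave -0.28, -0.57 and -0.08 in the mESC arrays, 0.24, -0.17, 0.17 and 0.90 in OE + EpEX, 0.74, 0.53, -0.51 and -0.29 in KE + EpEX and 0.03, -0.03, -0.19 and -0.37 in OSKM iPSCs, in clone order. In each of the 3 Prrx1 probe sets, the highest pluripotent values were those of OE + EpEX clone 4 and KE + EpEX clones 1 and 2.

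Lhx9, a LIM homeodomain factor of limb and gonad, had 2 probe sets. Probe set 1419324_at read 3.41, 6.23 and 6.2 in MEF samples 1 to 3 and -0.17, -0.08 and -0.34 in the mESC arrays, -0.25, 0.0017, -0.31 and 0.20 in OE + EpEX, 0.20, -0.14, 0.19 and -0.30 in KE + EpEX and 0.20, -0.08, -0.0017 and 0.03 in OSKM iPSCs, in clone order. Probe set 1429905_at read 1.46, 5.61 and 5.44 in MEF samples 1 to 3 and -0.39, -0.0033 and -0.25 in the mESC arrays, 0.21, 0.0033, -0.03 and 0.11 in OE + EpEX, 0.0033, 0.02, -0.13 and -0.49 in KE + EpEX and 0.04, -0.34, -0.09 and -0.07 in OSKM iPSCs, in clone order. Lhx9 was flat among pluripotent arrays and much lower in MEF sample 1 than in samples 2 and 3. Hoxa9 (1455626_at) and Hoxa10 (1431475_a_at), Hox factors of the posterior body that neighbour each other with 0 protein-coding genes between them in the RefSeq table, measured 2.41, 4.69 and 5.01 and 2.52, 6.11 and 6.02 in MEF samples 1 to 3, against -0.50 to 0.52 and -0.33 to 0.59 over the 15 pluripotent arrays. Prrx2 (1432331_a_at), the close relative of Prrx1, measured 3.09, 4.8 and 4.77 in MEFs and -0.44 to 0.42 in the others. Zfhx4 (1437556_at), a large factor with zinc fingers and homeodomains, measured 3.7, 4.57 and 4.87 in MEFs and -0.49 to 0.72 elsewhere.

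The zinc finger genes numbered 9, with 10 probe sets and MEF differences from 3.80 to 6.49. Egr1 (1417065_at), an immediate early factor induced by serum and stress, measured 7.14, 5.47 and 5.5 in MEF samples 1 to 3 and 0.06, 0.00087 and 0.81 in the mESC arrays, 0.94, 0.10, 0.29 and -0.76 in OE + EpEX, -0.00087, -0.45, -1.64 and -1.53 in KE + EpEX and -0.92, -1.19, -1.45 and -1.06 in OSKM iPSCs, in clone order. It was low in all 4 OSKM clones and in KE + EpEX clones 3 and 4. Egr3 (1436329_at), a related immediate early factor, measured 5.34, 3.26 and 3.78 in MEF samples 1 to 3 and -0.15, -0.23 and -0.03 in the mESC arrays, -0.10, 0.01, 0.39 and 0.03 in OE + EpEX, -0.30, -0.22, -0.35 and -0.01 in KE + EpEX and 0.17, -0.05, 0.28 and 0.04 in OSKM iPSCs, in clone order. Zfp521 (1451332_at), known as a partner that restrains Ebf1, measured 4.19, 6.62 and 6.6 in MEF samples 1 to 3 and -0.01, 0.35 and -0.21 in the mESC arrays, -0.06, -0.05, 0.01 and 0.39 in OE + EpEX, 1.1, 0.05, -0.91 and 1.52 in KE + EpEX and -0.73, -0.60, -0.75 and -0.44 in OSKM iPSCs, in clone order. Its highest pluripotent values were in KE + EpEX clones 4 and 1, while KE + EpEX clone 3 was the lowest of the 15. Zfp503 (1423835_at), a repressor of the Nolz group, measured 3.79, 6.01 and 5.71 in MEF samples 1 to 3 and -0.04, -0.57 and -0.38 in the mESC arrays, 0.26, 0.04, 0.14 and 0.69 in OE + EpEX, 1.77, 0.95, -0.45 and -0.79 in KE + EpEX and -0.36, -0.13, -0.32 and -0.40 in OSKM iPSCs, in clone order. KE + EpEX clones split into 2 high and 2 low ones for this gene.

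Glis3 (1430353_at), a Krüppel-like factor of kidney and pancreas, measured 1.94, 5.68 and 5.9 in MEF samples 1 to 3 and -0.94, -0.78 and -0.73 in the mESC arrays, -0.42, -0.32, -0.24 and 0.32 in OE + EpEX, 0.52, 0.52, 0.52 and -0.14 in KE + EpEX and -0.15, 0.03, 0.02 and -0.02 in OSKM iPSCs, in clone order. The 3 mESC arrays were the lowest of the 15. Zfp9 (1456483_at), a zinc finger protein, measured 4.32, 3.76 and 4.25 in MEF samples 1 to 3 and -0.24, -0.25 and 0.02 in the mESC arrays, -0.00056, -0.08, -0.10 and 0.36 in OE + EpEX, 0.77, 0.24, 0.00056 and 0.07 in KE + EpEX and -0.22, -0.24, -0.41 and -0.54 in OSKM iPSCs, in clone order. The remaining members stayed within narrow bounds: Osr1 (1449350_at, limb and kidney mesenchyme) at -0.51 to 0.38 over the 15 arrays against 2.35, 5.88 and 5.61 in MEFs, and Gli3 (1455154_at, Hedgehog signalling) at -0.33 to 0.32 against 2.31, 4.48 and 4.49. Zfpm2 (1449314_at), the GATA cofactor FOG2, ranged over -0.46 to 0.77 against 5.32, 4.66 and 4.87 in MEFs, and a further Zfp503 probe set, 1423836_at, over -0.31 to 0.49 against 3.33, 4.91 and 4.86.

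The nuclear factor I family held 7 probe sets of Nfib and Nfix, with MEF differences from 4.84 to 5.71. Nfix (1436363_a_at) measured 5.02, 6.01 and 6.07 in MEF samples 1 to 3 and -0.92, -0.84 and -0.88 in the mESC arrays, 0.40, 0.0044, 0.40 and 1.33 in OE + EpEX, 1.41, 0.64, -0.21 and -0.56 in KE + EpEX and -0.03, -0.45, -0.0044 and -0.50 in OSKM iPSCs, in clone order. Probe set 1436364_x_at of the same gene measured 4.66, 5.72 and 5.8 in MEFs and -0.80, -0.64 and -0.43 in the mESC arrays, 0.23, -0.0047, 0.23 and 1.27 in OE + EpEX, 1.29, 0.50, -0.14 and -0.26 in KE + EpEX and 0.0047, -0.08, -0.09 and -0.16 in OSKM iPSCs, in clone order. Both were lowest in the 3 mESC arrays and highest in KE + EpEX clone 1 and OE + EpEX clone 4. The third Nfix probe set, 1423493_a_at, ranged over -0.71 to 1.32 in the 15 arrays. Nfib (1454834_at) measured 3.34, 6.4 and 6.39 in MEF samples 1 to 3 and 0.12, -0.02 and 0.07 in the mESC arrays, 0.02, -0.47, -0.60 and 0.56 in OE + EpEX, 0.11, -0.23, -0.74 and 0.29 in KE + EpEX and -0.09, -0.22, -0.53 and -0.36 in OSKM iPSCs, in clone order. The other 3 Nfib probe sets measured 2.86 to 6.00 in MEFs and -0.74 to 0.63 elsewhere. MEF sample 1 minus the mean of samples 2 and 3 was -1.31 to -1.02 for Nfix and -3.06 to -2.52 for Nfib.

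Ebf1, a factor of B cells and of fat and marrow stroma, was the member whose values separated mESCs from iPSCs most. Probe set 1416301_a_at measured 3.51, 6.76 and 6.47 in MEF samples 1 to 3 and 1.51, 1.33 and 1.07 in the mESC arrays, -0.42, -0.18, 0.02 and -0.04 in OE + EpEX, -0.15, -0.52, -0.59 and 0.72 in KE + EpEX and 0.27, -0.20, -0.13 and -0.02 in OSKM iPSCs, in clone order. Every mESC array lay above every iPSC array. Probe set 1448293_at measured 2.77, 6.85 and 6.85 in MEFs and 0.44, 0.97 and 0.28 in the mESC arrays, -0.71, -0.66, 0.10 and -0.22 in OE + EpEX, 0.15, -0.62, -0.78 and 1.01 in KE + EpEX and -0.10, -0.55, -0.55 and -0.71 in OSKM iPSCs, in clone order, so that KE + EpEX clone 4 overlapped the mESC arrays. Probe set 1439789_at measured 2.12, 6.12 and 6.2 in MEFs and 0.50, 0.19 and 0.27 in the mESC arrays, -0.12, -0.16, 0.05 and 0.02 in OE + EpEX, 0.02, -0.23, -0.06 and -0.27 in KE + EpEX and -0.03, -0.38, -0.12 and -0.02 in OSKM iPSCs, in clone order.

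Among leucine zipper factors, Fosl2 (1437247_at), a subunit of AP-1, measured 3.97, 5.84 and 5.96 in MEF samples 1 to 3 and -0.73, -1.12 and -0.69 in the mESC arrays, 1.06, 0.39, -0.15 and 1.91 in OE + EpEX, 1.62, 0.80, -0.78 and -0.79 in KE + EpEX and -0.02, -0.06, 0.02 and -0.32 in OSKM iPSCs, in clone order. KE + EpEX clones 3 and 4 lay among the mESC values, and the other iPSC clones lay above them. Maf (1456060_at), a large Maf factor, measured 3.23, 6.47 and 6.47 in MEF samples 1 to 3 and -0.22, 0.03 and 0.06 in the mESC arrays, -0.05, -0.13, -0.03 and 0.79 in OE + EpEX, 0.31, 0.37, -0.06 and -0.10 in KE + EpEX and -0.12, 0.08, -0.21 and -0.22 in OSKM iPSCs, in clone order. OE + EpEX clone 4 was the highest pluripotent array here, whereas the further Maf probe set, 1447849_s_at, gave 0.01 in that clone, so the probe sets disagreed on it. That probe set measured 3.28, 5.31 and 5.29 in MEFs.

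Foxc1 (1419486_at), a forkhead factor of skull and vessel mesenchyme, measured 4.27, 5.79 and 5.79 in MEF samples 1 to 3 and -0.13, -0.08 and -0.07 in the mESC arrays, -0.05, 0.13, -0.19 and 1.23 in OE + EpEX, 1.26, 0.76, -0.16 and -0.09 in KE + EpEX and 0.05, -0.26, -0.33 and 0.16 in OSKM iPSCs, in clone order. Its further probe set, 1419485_at, and Foxp2 (1440108_at) ranged over -0.29 to 0.69 and -0.19 to 0.42 in the 15 arrays. Runx1t1 (1444615_x_at), a corepressor that binds Runx and other factors, measured 4.5, 5.32 and 5.37 in MEF samples 1 to 3 and 0.01, 0.04 and -0.01 in the mESC arrays, -0.23, -0.14, -0.09 and 0.35 in OE + EpEX, 0.93, 0.12, -0.36 and 0.72 in KE + EpEX and -0.02, -0.32, -0.09 and -0.52 in OSKM iPSCs, in clone order. The other 2 Runx1t1 probe sets spanned -0.49 to 0.60 in pluripotent arrays, and Runx2 (1424704_at), which directs bone formation, spanned -0.45 to 0.81 against 4.85, 4.61 and 5.16 in MEFs.

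Mef2a and Mef2c, known from muscle, had the smallest MEF differences. Mef2a (1427185_at) measured 3.53, 3.64 and 3.67 in MEF samples 1 to 3 and 0.15, 0.01 and 0.17 in the mESC arrays, 0.01, -0.23, -0.13 and 0.26 in OE + EpEX, 0.25, -0.09, -0.01 and -0.31 in KE + EpEX and -0.04, -0.28, -0.10 and -0.10 in OSKM iPSCs, in clone order. Mef2c (1421027_a_at) measured 2.31, 4.2 and 4.11 in MEFs and -0.25 to 0.14 elsewhere. The LIM-only cofactor Lmo4 (1420981_a_at) measured 2.88, 4.67 and 4.83 in MEFs and -0.42 to 0.16 elsewhere, and the orphan nuclear receptor Nr2f2 (1416159_at) 3.76, 4.7 and 4.64 and -0.49 to 0.95. Nr4a2 (1455034_at), an orphan receptor of the immediate early class, measured 6.57, 2.86 and 2.91 in MEF samples 1 to 3 and -0.61, -0.36 and -1.0 in the mESC arrays, 0.43, 0.02, -0.02 and 0.39 in OE + EpEX, 0.08, -0.28, -0.50 and 0.64 in KE + EpEX and 0.05, -0.51, -0.41 and -0.08 in OSKM iPSCs, in clone order.

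At the edge of the list, the members closest to the 10-fold limit were Zfp9, Fosl2 and Mef2a (1427185_at), whose MEF mean was 10.1, 10.1 and 10.2-fold above the highest other array. That array was KE + EpEX clone 1 for Zfp9 and OE + EpEX clone 4 for Fosl2 and Mef2a. Symbols were deposited only for listed probe sets, so genes just outside the limit, or within it but unlisted, are not named.

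The 3 MEF samples differed in these regulators. Hoxd13 (1440626_at), the Hox factor of digits and the most distal limb, measured -0.09, 6.58 and 6.72 in MEF samples 1 to 3, and its 15 pluripotent values were 0.43, 0.22 and 0.31 in the mESC arrays, -0.35, 0.19, 0.03 and -0.21 in OE + EpEX, -0.35, -0.26, -0.02 and -0.08 in KE + EpEX and 0.02, -0.12, 0.10 and -0.03 in OSKM iPSCs, in clone order. MEF sample 1 therefore lay inside the pluripotent range for Hoxd13, while samples 2 and 3 were more than 6 log2 units above it. Counting members at least 2-fold lower in MEF sample 1 than in the mean of samples 2 and 3 gave 33 of 47 (70.2%), against 8.02% of all probe sets and 71.5% of the other 424 probe sets on the authors' lower list. A further 3 were at least 2-fold higher (6.38%, against 6.42% of all probe sets): Nr4a2 by 3.68, Egr3 by 1.82 and Egr1 by 1.65. Members and the other listed probe sets were chosen for a high mean over these same MEF samples. The shares over all probe sets, which were not chosen so, are therefore not a like comparison.

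After Hoxd13 (-6.74), members far below in MEF sample 1 were Ebf1 (-4.08 for 1448293_at and -4.03 for 1439789_at) and Lhx9 (-4.06 for 1429905_at). Glis3 (-3.84), Hoxa10 (-3.55) and Osr1 (-3.39) were also low there. Runx2 (-0.03), Mef2a (-0.12 and 0.09) and Zfp9 (0.31) differed little. The Prrx1 probe sets disagreed, with -0.23 for 1425528_at, -1.13 for 1439774_at and 0.61 for 1425526_a_at. MEF samples 2 and 3 differed from each other by a median of 0.08 and at most 0.68 over the members. Fibroblast markers, named only where they were on the same lower list, were lower in MEF sample 1 as well. Their medians were 5.04, 5.95 and 6.03 in MEF samples 1 to 3. Of their 18 probe sets, 10 were at least 2-fold lower in sample 1 and 1 was at least 2-fold higher (1 of 3 Fbn1 probe sets, by 1.5). Over all probe sets, which were not chosen for a high MEF mean, the shares were 8.02% and 6.42%. Lum (a matrix proteoglycan) differed by -4.28, Col3a1 (a fibrillar collagen) by -3.72 and Pdgfra (a growth factor receptor of mesenchyme) by -3.27, while Col1a1 differed by 0.32. Of the 12 probe sets of the same prefixes on the authors' higher list, 6 were at least 2-fold higher in MEF sample 1 and 0 at least 2-fold lower. Among them Tcfl5 measured -0.93, -5.71 and -5.89 in MEF samples 1 to 3 and Klf5 -2.93, -5.33 and -5.22. Sample 1 thus lay nearer to the pluripotent arrays for Tcfl5 and Klf5. The probe sets under the 2-fold limit differed by -0.55 (Zfp961) to 0.32 (Zfp42). The 12 pluripotency marker probe sets showed no such shift, with medians of -7.10, -6.90 and -6.88 in MEF samples 1 to 3. The endothelial marker Pecam1, also on the higher list, measured -2.81, -4.73 and -4.69. With 1 sample against the other 2 there is no replicate check of this difference, and its cause was not tested.

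With MEF sample 1 alone as the reference, 14 of the 47 probe sets, of 10 genes, met the authors' 10-fold limit against all 15 arrays. Sample 2 alone gave 44 and sample 3 alone 45. The median difference from the 15 arrays was 3.56 for sample 1, 5.66 for sample 2 and 5.58 for sample 3. The members were chosen by the mean of these same samples, in which the similar samples 2 and 3 weigh more than sample 1. These counts and medians are therefore a description and no independent check of sample 1.

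**Figure D2:**
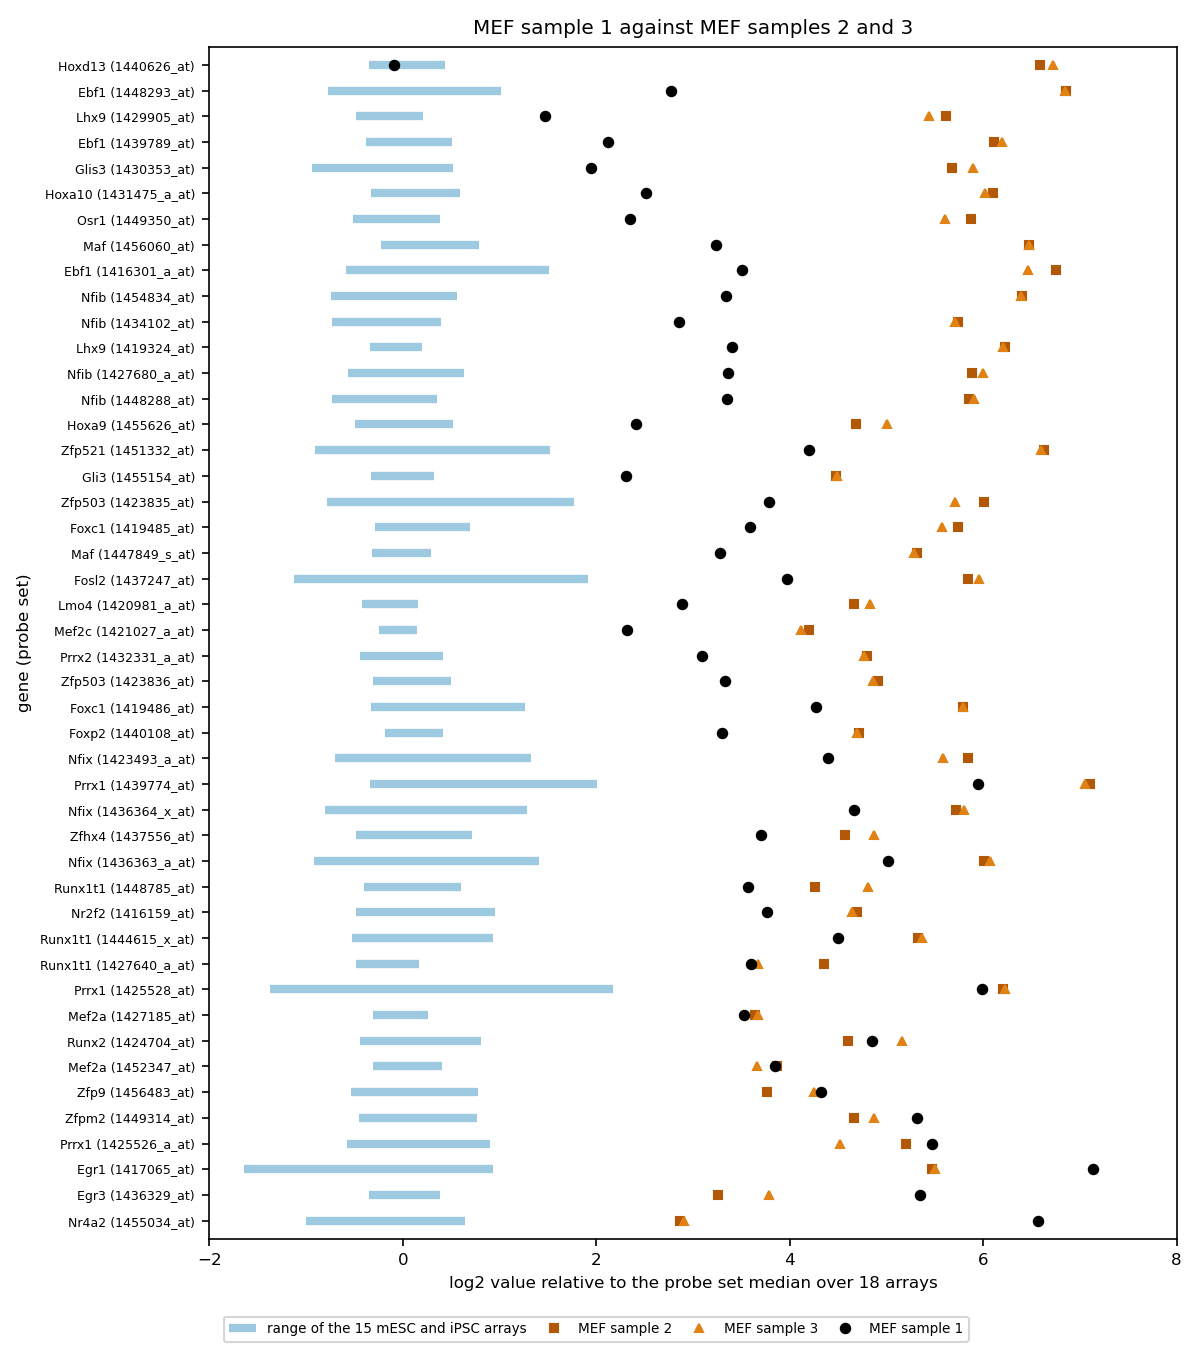
Log2 values (centred on the probe set median over 18 arrays) of 46 probe sets in MEF samples 1 (circles), 2 (squares) and 3 (triangles), with bars for the range of the 15 mESC and iPSC arrays, ordered by the difference of MEF sample 1 from samples 2 and 3. Hoxd13 at the top is inside the bar in MEF sample 1, and Nr4a2, Egr3 and Egr1 at the bottom are higher in that sample.

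Among pluripotent arrays, the highest value of a member fell most often in KE + EpEX clone 1 or OE + EpEX clone 4. KE + EpEX clone 1 was the highest of the 15 arrays for 15 members (31.9%, against 7.7% of all probe sets), which belong to 10 genes. OE + EpEX clone 4 was the highest for 13 members (27.7%, against 8.24%), which belong to 12 genes. At least 2-fold above the median of the 15 arrays were 9 members in KE + EpEX clone 1 (19.1%, against 1.25%) and 7 in OE + EpEX clone 4 (14.9%, against 1.6%). The other 424 probe sets on the authors' lower list were raised in the same arrays: KE + EpEX clone 1 was the highest for 54.2% of them and OE + EpEX clone 4 for 18.6%, and their medians were 0.53 and 0.36. An OSKM clone was the highest array for 0 members (against 20% of all probe sets). Member medians were 0.27 in KE + EpEX clone 1 and 0.32 in OE + EpEX clone 4, and ran from -0.21 to 0.02 in the other 13 arrays. Fibroblast markers (18 probe sets of 14 genes, collagens among them) were also highest in KE + EpEX clone 1 and OE + EpEX clone 4, with medians of 1.48 and 0.79. Their medians were 0.61 in KE + EpEX clone 2 and 0.29 in OE + EpEX clone 3, where member medians were 0.02 and -0.02. Marker medians were -0.40 to -0.37 in the 3 mESC arrays and -0.62 to -0.0072 in the other 8. The lowest marker medians were those of KE + EpEX clones 4 and 3. Of the 18 marker probe sets, Col3a1 was the most raised in KE + EpEX clone 1, at 3.01, against 5.51, 9.19 and 9.28 in MEF samples 1 to 3. In KE + EpEX clone 1, 17 of the 18 marker probe sets lay above 0, from -0.55 (Pdgfra) to 3.01, and in OE + EpEX clone 4 all 18, from 0.16 to 2.67. Centred values cannot show whether a marker was at 0. The median member stood at 5.56% of its MEF mean in KE + EpEX clone 1, at 5.52% in OE + EpEX clone 4 and at 3.09% to 4.31% in the others. The part of fibroblast RNA in the member values was not tested.

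**Figure D3:**
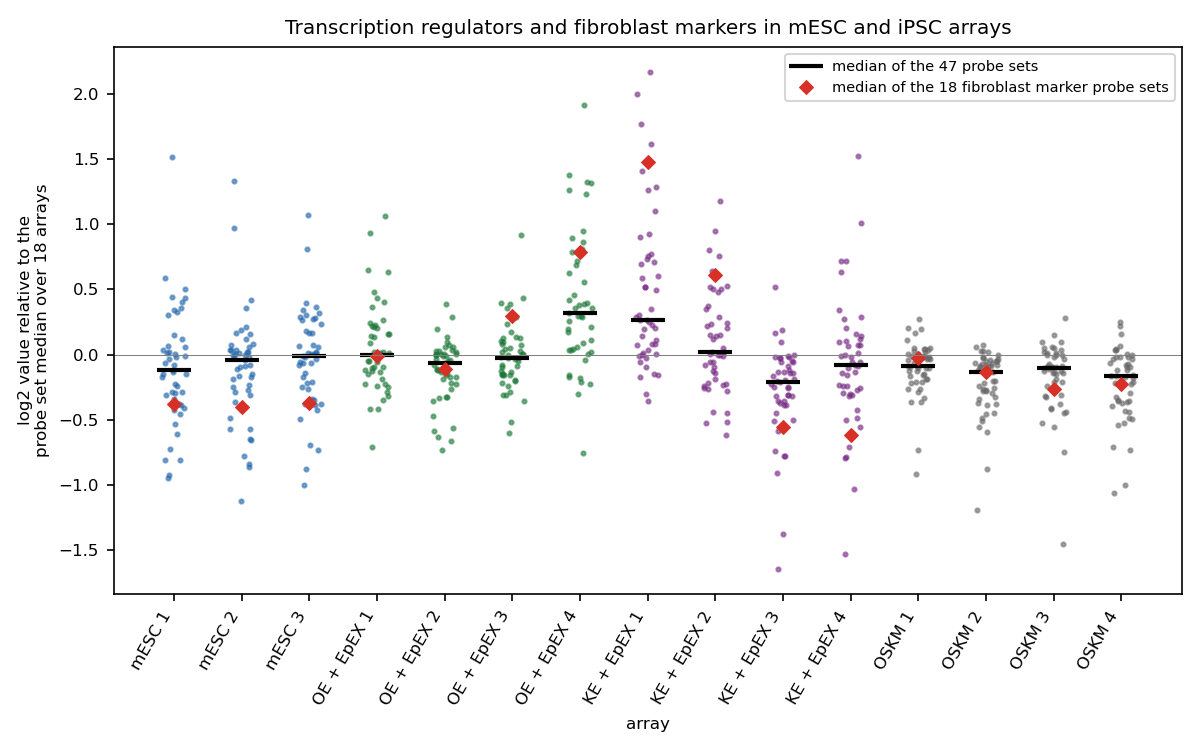
Log2 values (centred on the probe set median over 18 arrays) of the 47 probe sets (dots) in each mESC and iPSC array, with their median (black line) and the median of 18 fibroblast marker probe sets (red diamond). Both medians were highest in OE + EpEX clone 4 and KE + EpEX clone 1, where the markers reached 0.79 and 1.48.

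In KE + EpEX clone 4, where the marker median was -0.62, Zfp521 reached 1.52, Ebf1 1.01 (1448293_at) and 0.72 (1416301_a_at), Runx1t1 0.72 (1444615_x_at) and Nr4a2 0.64. KE + EpEX clone 4 was the highest array for 3 members, Zfp521, Ebf1 (1448293_at) and Nr4a2 (6.38%, against 7.84% of all probe sets), a share near the background. It was the lowest array for 6 members (12.8%, against 9.59% of all probe sets). The third Ebf1 probe set, 1439789_at, was not raised in this clone. Over all 47 members, values in this clone ran from -1.53 to 1.52, with a median of -0.08.

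Whether iPSCs held more of these RNAs than mESCs was tested with limma over the 15 pluripotent arrays, calling a probe set changed at an adjusted p under 0.05 and at least 2-fold. The 3 comparisons with mESCs share the mESC arrays. In OE + EpEX iPSCs, 3 members were called higher (6.38%, against 2.06% of all probe sets) and 1 lower (2.13%, against 1.37%). Fosl2 differed from mESCs by 1.65 (SE 0.52, 95% interval 0.54 to 2.76, limma with Benjamini-Hochberg adjusted p = 0.0455), with all 4 OE + EpEX clones above the 3 mESC arrays. Nfix rose by 1.41 (SE 0.37, 95% interval 0.62 to 2.21, limma with Benjamini-Hochberg adjusted p = 0.0189) at 1436363_a_at and by 1.06 (SE 0.32, 95% interval 0.37 to 1.74, limma with Benjamini-Hochberg adjusted p = 0.0389) at 1436364_x_at. Ebf1 was lower, with a difference of -1.46 (SE 0.24, 95% interval -1.98 to -0.95, limma with Benjamini-Hochberg adjusted p = 0.000792) at 1416301_a_at. Prrx1 (1425528_at) did not pass, with a difference of 1.53 (SE 0.62, 95% interval 0.20 to 2.85, limma with Benjamini-Hochberg adjusted p = 0.121). Leaving out 1 array at a time, the Fosl2 call was lost without any of mESC clones 1 to 3 or OE + EpEX clones 1, 2 or 4 (differences of 1.28 to 1.79, limma adjusted p = 0.0568 to 0.129). The Nfix call at 1436363_a_at was lost without mESC clone 1, mESC clone 3 or OE + EpEX clone 4 (differences of 1.15 to 1.41, limma adjusted p = 0.0546 to 0.0625), and that at 1436364_x_at without any mESC clone or OE + EpEX clones 1 or 4 (differences of 0.78 to 1.15, limma adjusted p = 0.0576 to 0.122). The Ebf1 call was kept each time. By the methods' t-test after adjustment, 1 member was called (2.13%, against 1.59% of all probe sets), Ebf1 at 1416301_a_at. Fibroblast markers were also higher in OE + EpEX iPSCs than in mESCs, with a median difference of 0.84 and 16 of 18 probe sets above 0. Limma called 2 of them higher (against 2.06% of all probe sets), Col6a3 by 1.86 and Col5a2 by 1.75, and 0 lower (against 1.37%). The part of fibroblast RNA in the Fosl2 and Nfix differences was not tested.

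In KE + EpEX iPSCs, 2 members were called higher than in mESCs (4.26%, against 1.97% of all probe sets) and 1 lower (2.13%, against 1.92%). Glis3 was higher by 1.17 (SE 0.18, 95% interval 0.80 to 1.55, limma with Benjamini-Hochberg adjusted p = 0.000288), with all 4 clones above the mESC arrays. Nfix (1436363_a_at) was higher by 1.2 (SE 0.37, 95% interval 0.41 to 2.0, limma with Benjamini-Hochberg adjusted p = 0.0376), a call that was lost without any mESC clone or KE + EpEX clones 1 or 2 (differences of 0.84 to 1.22, limma adjusted p = 0.0809 to 0.107). The Glis3 and Ebf1 calls were kept with each array left out in turn. Ebf1 (1416301_a_at) was lower, with a difference of -1.44 (SE 0.24, 95% interval -1.96 to -0.93, limma with Benjamini-Hochberg adjusted p = 0.000741). Egr1 missed the threshold at -1.2 (SE 0.40, 95% interval -2.04 to -0.35, limma with Benjamini-Hochberg adjusted p = 0.0517). The methods' t-test after adjustment called 1 member (2.13%, against 1.7% of all probe sets), Glis3. Under it the Ebf1 call was lost, with an adjusted p of 0.112 by the methods' t-test, an equal-variance test without limma's pooling. The marker median differed by 0.54, with 16 of 18 marker probe sets above 0. Of these 18, 2 were called higher (Col6a3 and Col5a2, against 1.97% of all probe sets) and 1 lower (Pdgfra, against 1.92%).

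In OSKM iPSCs, 0 members were called higher than in mESCs (against 1.82% of all probe sets) and 3 lower (6.38%, against 1.9%). Over both directions 11 members had p under 0.05 before adjustment in limma (23.4%, against 27.9% of all probe sets). Against mESCs, 18 members did so in OE + EpEX iPSCs (38.3%, against 27.2%) and 15 in KE + EpEX iPSCs (31.9%, against 27.5%). The methods' t-test after adjustment called the same number, 3 (6.38%, against 3.79%), all lower. Ebf1 was lower, with differences of -1.33 (SE 0.24, 95% interval -1.84 to -0.81, limma with Benjamini-Hochberg adjusted p = 0.00137) at 1416301_a_at and -1.04 (SE 0.34, 95% interval -1.77 to -0.31, limma with Benjamini-Hochberg adjusted p = 0.0488) at 1448293_at. Egr1 was lower, with a difference of -1.44 (SE 0.40, 95% interval -2.29 to -0.60, limma with Benjamini-Hochberg adjusted p = 0.0197), with no overlap between the groups. The Ebf1 call at 1448293_at was lost without any mESC clone or OSKM clones 2, 3 or 4 (differences of -1.18 to -0.84, limma adjusted p = 0.0722 to 0.177). The Egr1 call was lost without mESC clone 3 (-1.19, limma adjusted p = 0.111) and without OSKM clone 3 (-1.35, limma adjusted p = 0.0559). Glis3 differed by 0.79 (SE 0.18, 95% interval 0.41 to 1.16, limma with Benjamini-Hochberg adjusted p = 0.00535), under the 2-fold limit. The marker median differed by 0.39, with 12 of 18 marker probe sets above 0. Of these 18, 3 were called higher (Postn, Col6a3 and Col5a2, against 1.82% of all probe sets) and 1 lower (Pdgfra, against 1.9%).

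Ebf1 at 1416301_a_at was the only member probe set called by limma in all 3 comparisons, with differences of -1.46 to -1.33. The third Ebf1 probe set, 1439789_at, differed by -0.37 (SE 0.11, 95% interval -0.61 to -0.13, limma with Benjamini-Hochberg adjusted p = 0.0375) in OE + EpEX, under the 2-fold limit. At this probe set every mESC array lay above every iPSC clone, but it was not called in any comparison. Probe set 1448293_at was called only in OSKM iPSCs. Fitting all 18 arrays instead, in which the spread between MEF samples enters the error, left 1 member called in OE + EpEX iPSCs (Nfix 1436363_a_at) and 0 in KE + EpEX and in OSKM iPSCs. Leaving out both KE + EpEX clone 1 and OE + EpEX clone 4 left 3, 3 and 2 members called, and Ebf1 (1416301_a_at) and Glis3 kept their calls. The shares of all probe sets called in these other fits were not counted.

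**Figure D4:**
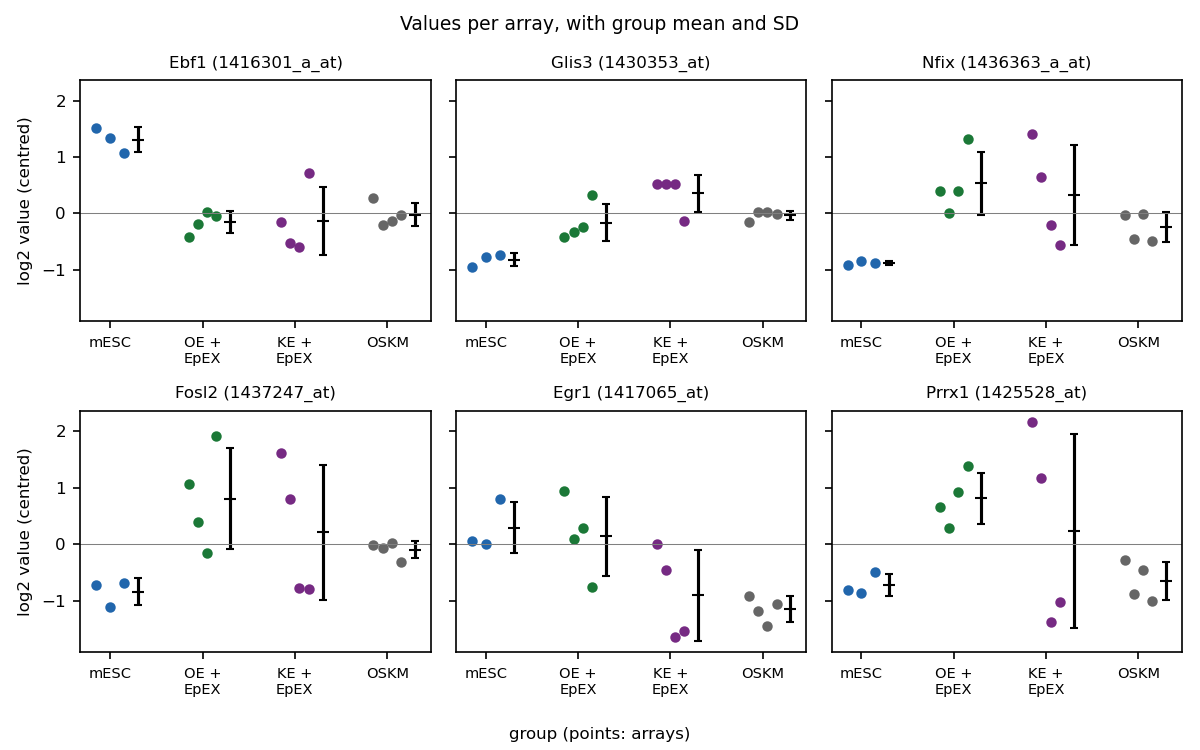
Log2 values (centred on the probe set median over 18 arrays) of 6 probe sets in each mESC and iPSC array (points), with the group mean and SD beside them (n = 3 for mESC and 4 for the others). The mESC points lie above all iPSC points for Ebf1 and below them for Glis3 and Nfix, and KE + EpEX clones are widely spread for Fosl2, Egr1 and Prrx1.

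Between the iPSC kinds, limma called 0 members. For OE + EpEX against OSKM iPSCs, 0.0977% of all probe sets were called, and 6 members (12.8%) had an unadjusted p under 0.05, against 16.5% of all probe sets. By the methods' t-test 2 were called before adjustment (4.26%, against 0.311% of all probe sets) and 0 after it (against 0.0511%). Egr1 differed by 1.3 (SE 0.37, 95% interval 0.51 to 2.08, limma with Benjamini-Hochberg adjusted p = 0.0912) and Prrx1 (1425528_at) by 1.46 (SE 0.58, 95% interval 0.24 to 2.69, limma with Benjamini-Hochberg adjusted p = 0.216). The OE + EpEX clones all lay above the OSKM clones for 7 members (14.9%, against 6.71% of all probe sets), namely Prrx1 (1425528_at), Egr1, Nfix (1436363_a_at), Zfp521, Zfp9 and both Zfp503 probe sets, and all lay below for 0 (against 7.27%).

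For KE + EpEX against OSKM iPSCs, 0.00222% of all probe sets and 0 members were called, and 6 members (12.8%) had an unadjusted p under 0.05, against 12% of all probe sets. Zfp521 was the member with the widest difference, 1.07 (SE 0.37, 95% interval 0.29 to 1.85, limma with Benjamini-Hochberg adjusted p = 0.252), and Zfp9 had the smallest p, at 0.62 (SE 0.15, 95% interval 0.29 to 0.95, limma with Benjamini-Hochberg adjusted p = 0.142). For OE + EpEX against KE + EpEX iPSCs, 0% of all probe sets and 0 members were called, and 4 members (8.51%) had an unadjusted p under 0.05, against 8.27%. Egr1 differed by 1.05 (SE 0.37, 95% interval 0.27 to 1.83, limma with Benjamini-Hochberg adjusted p = 0.505) and Glis3 by -0.52 (SE 0.16, 95% interval -0.87 to -0.17, limma with Benjamini-Hochberg adjusted p = 0.48). The methods' t-test called 0 members and 0% of all probe sets after adjustment in these 2 comparisons. The median difference of the members was 0.18 for OE + EpEX minus OSKM and 0.22 for KE + EpEX minus OSKM, both of which share the OSKM arrays, against -0.02 and -0.0021 over all probe sets. It was 0.02 for OE + EpEX minus KE + EpEX.

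**Figure D5:**
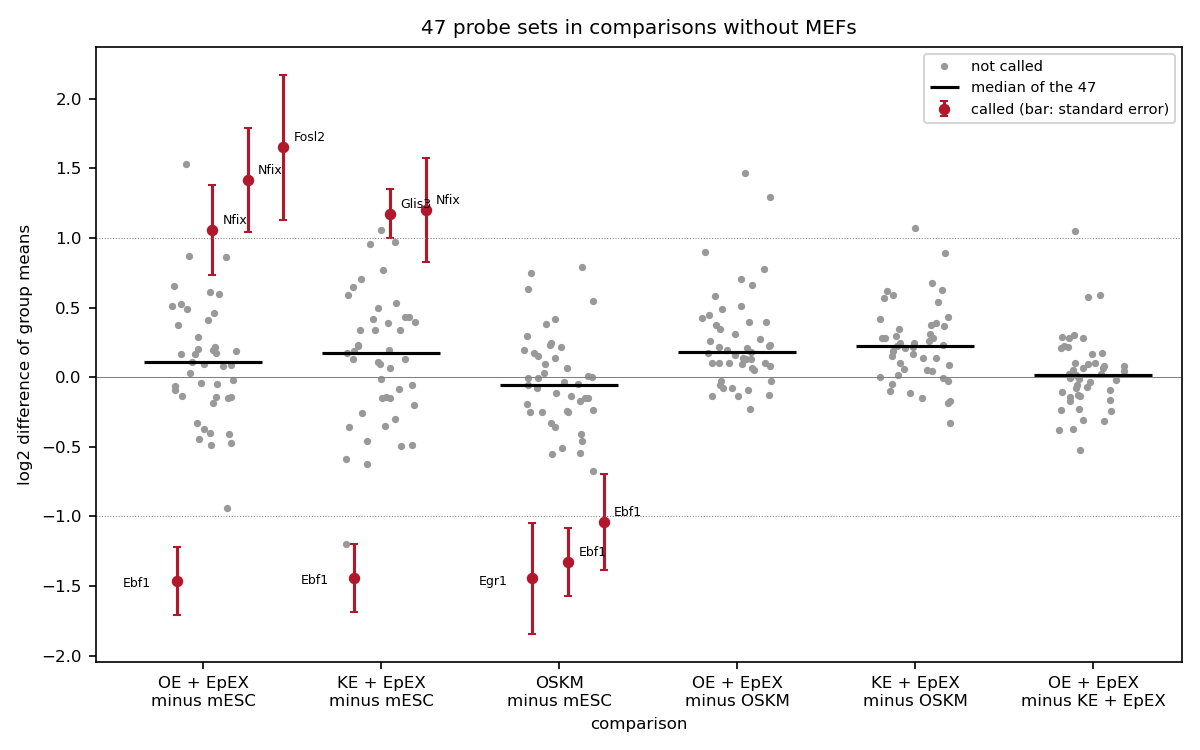
Log2 differences of group means for the 47 probe sets (dots) in the 6 comparisons among mESC and iPSC groups, with called members in red with their standard error, the member median as a black line and dotted lines at 2-fold. The 10 calls are all against mESCs, and no member was called between iPSC kinds.

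Regulators outside the rule gave a frame for the members. Of a list of 57 other mesenchymal regulators, 6 genes were on the authors' lower list (8 probe sets): Aebp1, Id3, Snai2, Twist1, Twist2 and Zeb2, with MEF means 3.84 to 6.20 above the 15 arrays. Twist2 was higher in MEF sample 1 than in the other MEF samples, by 1.47, while the differences of Aebp1 and Snai2 were -2.72 to -2.40. The same name prefixes also occurred among the authors' higher list, in 12 probe sets that were 14.5 to 848-fold higher in pluripotent cells, among them Zfp42, Klf5 and Tbx3, known from naive pluripotent cells, as well as Foxh1 and Tcfl5.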

How the data were processed

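Total RNA of 18 mouse samples was hybridised to Affymetrix mouse arrays, 1 array per sample (3 of MEFs, 3 mESC clones and 4 clones of every iPSC kind, grouped by the submitters' titles). The authors deposited a matrix of log2 values centred on each probe set's median over the 18 arrays, made with GeneSpring GX; the submitters' notes name MAS5 and RMA without a role, so scaling and detection are unknown. The labels give Trizol and biotin where the methods give a column kit and Cy3. Gene symbols came from the authors' lists of 471 lower and 477 higher probe sets, of which 9 and 8 have none. A column of the authors' MEF mean was checked against the 3 MEF samples and not used further. Deposited fold changes, where given, were not used.

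The 47 probe sets were selected by symbol prefix. The members and the gene lists were chosen with earlier results of these data known. After 64 control probe sets were left out, groups were compared over 45037 probe sets in limma 3.58.1 (R 4.3.3), with lmFit and eBayes over the 15 mESC and iPSC arrays and Benjamini-Hochberg adjustment over all of them, calling changes at an adjusted p under 0.05 and at least 2-fold. MEFs were kept out of this fit because of the spread between their samples. On simulated data with 200 randomly chosen probe sets changed 3-fold, 98% were recovered for OE + EpEX and 96% for OSKM against mESC. The simulated noise was normal and had the same spread in all groups. These rates therefore do not give the power for members with outlying clones or a wide spread. Alternatives were a fit of all 18 arrays, of 2 groups only, quantile normalization, centring of arrays, eBayes with trend and robust options, other thresholds, a filter on spread, a replicate block, 1 array left out at a time and the methods' t-test (an equal-variance test for each probe set, with the same 2-fold limit). Leaving out both KE + EpEX clone 1 and OE + EpEX clone 4 was added after seeing the data. Of the 31 member genes, 30 are named; 1 gene, with 1 probe set, is not reported here and enters only counts, medians and ranges over all 47 members. Values in every array are given for the 12 genes with the largest MEF difference, called members, the 6 probe sets with the widest range over the 15 arrays, the 4 furthest apart in MEF sample 1 in each direction and the 3 nearest the 10-fold limit. The number of arrays limits the precision. Promoter sequences are RefSeq's, GRCm38.p6, matched by symbol.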

Additional observations from a re-analysis of the deposited data

Results flagged for a closer look

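In 6 of 138 tests of a member in 1 iPSC group of 4 clones, the highest or lowest clone stood apart from the rest by Dixon's criterion, and chance flags about 1 in 20, or 6.9 here. OE + EpEX clone 4 was high for Zfp521 (0.39, others -0.06 to 0.0072) and for Maf at 1456060_at (0.79, others -0.13 to -0.03), and OE + EpEX clone 1 was low for Maf at 1447849_s_at (-0.32, others 0.0019 to 0.06). KE + EpEX clone 4 was low for Glis3 (-0.14, others 0.52). OSKM clone 1 was low for Osr1 (-0.34, others -0.0051 to 0.03), and OSKM clone 4 was high for Prrx2 (0.04, others -0.11 to -0.09).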

How the results depend on the processing

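Counts of called members are given for OE + EpEX, KE + EpEX and OSKM iPSCs against mESCs, where the main counts were 4, 3 and 3. With all 18 arrays fitted they were 1, 0 and 0. Quantile normalization gave 1 for OE + EpEX, and no fold threshold gave 10, 7 and 6. Without a fold threshold, members called higher were 10.6%, 4.26% and 2.13%, against 6.38%, 6.63% and 7.03% of all probe sets. Those called lower were 10.6% in each comparison, against 7.85%, 10% and 9.95%. An adjusted p under 0.01 gave 1 for OE + EpEX and 1 for OSKM, and the methods' t-test after adjustment 1 for OE + EpEX and 1 for KE + EpEX. With each array left out in turn they ranged from 1 to 4, 2 to 4 and 1 to 3. Between iPSC kinds the main counts were 0. OE + EpEX against OSKM gave 2 with only these groups fitted, 2 after quantile normalization, 2 by the methods' t-test before adjustment and 1 without both KE + EpEX clone 1 and OE + EpEX clone 4, and 0 to 0 with each array left out. KE + EpEX against OSKM gave 1 after quantile normalization and 0 to 1 with each array left out, the 1 without KE + EpEX clone 3. OE + EpEX against KE + EpEX gave 0 under every alternative run. Of the 10 single calls, none reversed its direction. Replicate numbers did not pair samples (2 of 21 same-numbered pairs correlated over 0.1, r from -0.36 to 0.25); with the replicate block the counts were 2, 2 and 2, and 0 between iPSC kinds. The median MEF difference of 4.84 was 3.56 against MEF sample 1 alone, 1.62 after quantile normalization and 4.37 to 5.64 with each MEF sample left out. Counted once per gene, the 47 members were 31. Levels near background cannot be told from centred values, and signal over background is unknown. The causes of these changes were not tested. By construction, the fit of 18 arrays adds the spread between MEF samples to the error, and a stricter threshold cannot call more. The part of that spread in the lost calls was not separated.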
